A study of Mus musculus with 2 samples.

Results

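CC chemokines of tumour cells and of the myeloid and other leukocytes around them were followed in single cells of mouse RM-1 tumours. The 10 genes (Ccl2, Ccl3, Ccl4, Ccl5, Ccl6, Ccl7, Ccl8, Ccl9, Ccl12 and Ccl24) were chosen by symbol, and all 10 were found among the 55357 features of both libraries. RM-1 is a mouse prostate cancer cell line, labelled WT by genotype. Its cells were grafted subcutaneously into C57BL/6 hosts. The tumours were taken at 10 days of treatment with vehicle or with RP-6306, an inhibitor of the kinase PKMYT1. Each treatment was 1 library, so a difference between libraries has no replicate check and no p-value is given. The series text speaks of 2 grafted mice, so each library may be 1 mouse, and the dose and the age of the mice are not given in the sources used here. The graft is 1 cell line at a site outside the prostate, and every non-tumour cell came from the host.

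CC chemokines are small secreted proteins that draw leukocytes along a gradient by binding receptors of the Ccr family. Ccl2, Ccl7, Ccl8 and Ccl12 are called the monocyte attractants here, and Ccl2, Ccl7 and Ccl12 act mainly through Ccr2. That label only names the group, and attraction was not measured. Ccl3, Ccl4 and Ccl5 act on macrophages, dendritic cells and activated T cells, and Ccl3 and Ccl5 bind Ccr1. Ccl6 and Ccl9 are myeloid products that bind Ccr1 too, and Ccl24 is an eosinophil attractant that binds Ccr3. Tumour cells and macrophages are both known sources of Ccl2 in tumours.

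The family is named for 2 adjacent cysteines near the start of the mature protein. The coding stretches around them, from GENCODE M21 transcripts on GRCm38, are shown for the 4 monocyte attractants and for the Ccl6 and Ccl9 pair, the genes whose sources and partners the results turn on. Capitals mark the paired cysteine codons.
Ccl2: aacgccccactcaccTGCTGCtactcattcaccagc
Ccl7: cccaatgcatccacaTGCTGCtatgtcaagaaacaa
Ccl12: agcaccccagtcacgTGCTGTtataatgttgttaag
Ccl8: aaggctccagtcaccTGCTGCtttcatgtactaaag
Ccl6: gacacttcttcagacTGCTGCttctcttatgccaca
Ccl9: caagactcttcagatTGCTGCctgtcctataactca
Over the 45 pairs of coding sequences of the 10 genes, identity had a median of 63.3%. It was highest for Ccl6 and Ccl9 (70.7%), with Ccl8 and Ccl12 at 70.5%, Ccl2 and Ccl12 at 69.7% and Ccl3 and Ccl4 at 69.6%. The longest run of identical coding bases in any pair was 23 bases. Untranslated ends, where this assay reads, were not compared.

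All members but Ccl24 lie on chromosome 11, in 2 groups (GRCm38, GENCODE M21, all protein-coding). The first spans 81.2 kb and holds Ccl2 (82035571 to 82037453), Ccl7 (82045712 to 82047525), Ccl12 (82101845 to 82103400) and Ccl8 (82115185 to 82116799), all on the plus strand. The second spans 139 kb and holds Ccl5 (83525778 to 83530518), Ccl9 (83572919 to 83578636), Ccl6 (83587882 to 83593087) and Ccl3 (83647844 to 83649355) on the minus strand and Ccl4 (83662584 to 83664683) on the plus strand. A gap of 1409 kb separates the groups. Ccl24 lies on chromosome 5 (135569937 to 135573049, minus strand).

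Promoters of 5 of the 10 genes (Ccl3, Ccl6, Ccl8, Ccl9 and Ccl12) had an entry in the RefSeq table (GRCm38.p6). Those of Ccl12 (chr11:82101595-82101844, plus strand) and Ccl8 (chr11:82114935-82115184, plus strand) are printed because these neighbours were both high in the same macrophage state. Each is the 250 bases before the start, and capitals mark the stretch that aligned between them.
Ccl12: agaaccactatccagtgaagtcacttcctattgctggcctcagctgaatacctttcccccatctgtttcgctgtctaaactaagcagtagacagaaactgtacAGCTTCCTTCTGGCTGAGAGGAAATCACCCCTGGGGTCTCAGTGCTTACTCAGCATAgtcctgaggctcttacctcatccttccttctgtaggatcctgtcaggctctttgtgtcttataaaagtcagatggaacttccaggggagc
Ccl8: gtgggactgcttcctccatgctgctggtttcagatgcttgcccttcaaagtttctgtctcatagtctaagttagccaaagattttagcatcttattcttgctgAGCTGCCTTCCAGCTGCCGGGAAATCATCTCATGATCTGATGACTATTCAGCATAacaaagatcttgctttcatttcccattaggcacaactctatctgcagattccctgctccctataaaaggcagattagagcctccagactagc
The aligned stretch has 58 columns, 41 of them identical (70.7%). It starts 147 bases before the start in both genes. The promoters of Ccl6 and Ccl9 shared 16 of 17 aligned bases (94.1%), the block with the highest score among the 10 pairs. The motifs AP-1 (TGANTCA), C/EBP (TTGCNNAA), NF-kB and an interferon-response-like one (ISRE-like) were searched on both strands from 250 bases before to 50 after the start. Of the 5 promoters, Ccl9 alone held a match: AP-1, 53 bases before the start, and NF-kB, 35 bases before the start. Of 32851 promoters, 3.44% held the interferon-response-like motif, 7.81% AP-1, 8.46% NF-kB and 10.8% C/EBP. A match is a description of the letters and was not tested as a binding site.

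Cell types were assigned by gates on detected marker genes, none of them a CC chemokine. After filtering, 8856 vehicle and 9500 RP-6306 cells were kept, at library medians of 9086.5 and 8932 UMIs per barcode (UMIs count captured molecules). The macrophage gate (3 or more of 7 leukocyte markers and 3 or more of 10 macrophage markers, a larger share of that list than of any other class list) held 248 vehicle and 260 RP-6306 cells, with medians of 5178.5 and 4782.5 UMIs. Their cells carried a median of 7 of the 10 macrophage markers, 2 of 8 monocyte and 1 of 8 neutrophil markers, and 0 dendritic, T or NK, B or mast cell markers. Exactly 3 macrophage markers, the least allowed, were found in 19 cells of each library. The epithelial keratin gene Krt8 stood at 61.5 and 51.9 CPM (UMIs of a gene per 1000000 UMIs of the gate) in the macrophage gate, against 1088 and 838 CPM in tumour-gated cells. The gates limit keratin in macrophage-gated cells and require it in tumour-gated cells, so this contrast follows partly from them.

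The tumour gate held 3754 and 3879 cells with 3 or more UMIs of the keratin genes Krt8 and Krt18 and at most 1 leukocyte, fibroblast or endothelial marker each. Another 3650 and 3919 cells met no gate, of which 3549 and 3810 had at most 1 leukocyte marker, and their Krt8 level (907 and 677 CPM) and Ccl2 level (979 and 988 CPM) lay beside those of the tumour gate. The fibroblast gate (265 and 372 cells) had Krt8 at 169 and 146 CPM, and it is named here by its gate and not as a cell type. The other gates were small: 108 and 157 monocyte, 11 and 13 dendritic, 22 and 34 T or NK, 2 and 10 neutrophil, and 31 and 20 endothelial cells. The libraries shared 34 barcodes, and leaving those cells out changed none of the counts of members that differed between the libraries in tumour-gated and macrophage-gated cells. It was not run for the macrophage states.

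**Figure D1:**
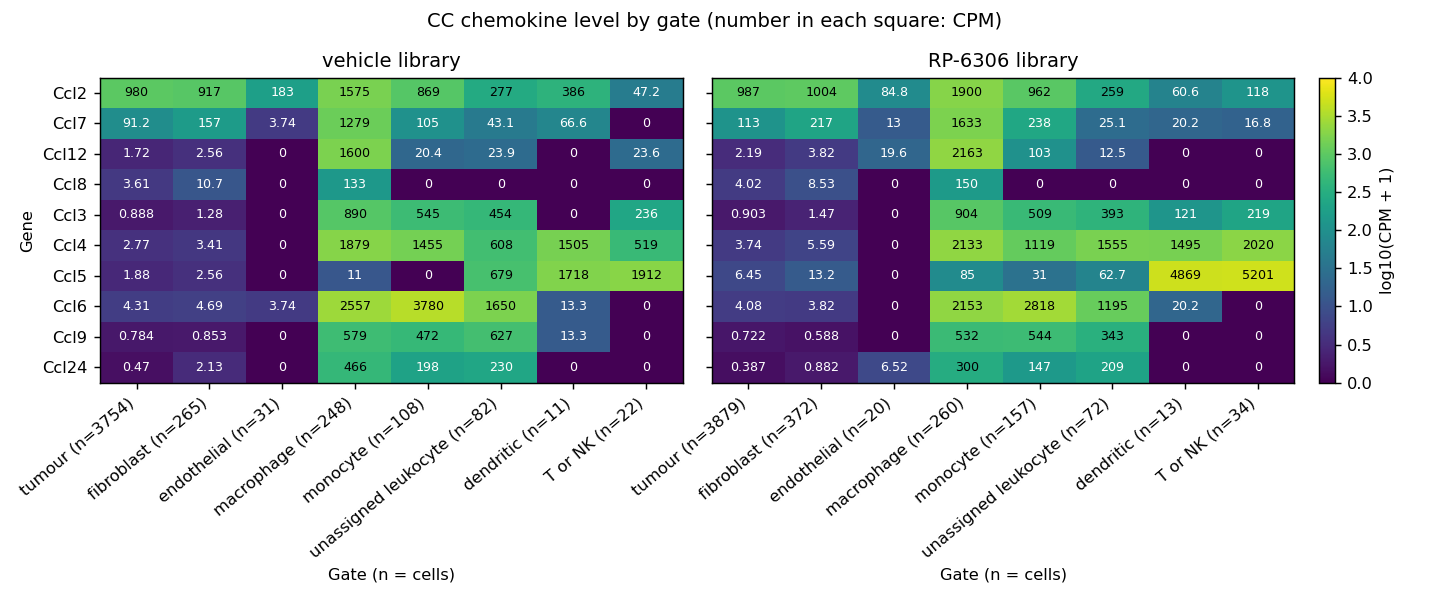
Level of each CC chemokine (rows) in 8 gates (columns, with the number of cells) in the vehicle (left) and RP-6306 (right) library. Colour is log10(CPM + 1) and the printed number is CPM. Ccl2 is high in tumour and macrophage gates alike, Ccl12 and Ccl8 stand out in the macrophage gate, and Ccl5 is highest in the dendritic and T or NK gates.

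Ccl2 was the one member abundant in tumour cells. It stood at 980.0 CPM in the tumour gate of the vehicle library (95% counting interval 970.1 to 989.9) and at 987 CPM (977 to 997) in that of the treated library. The median tumour-gated cell held 5 Ccl2 UMIs in both libraries, 14.0% and 13.2% of cells held none, and the richest cells held 105 and 113. Macrophage-gated cells were higher per UMI, at 1575 and 1899.8 CPM, and monocyte-gated cells lay close to tumour cells, at 869 and 962 CPM. Tumour-gated and ungated cells together held 83.3% and 81.5% of all Ccl2 UMIs, and macrophage-gated cells 2.4% and 2.69%.

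Ccl7, the neighbour of Ccl2, was shared between the compartments in another proportion. Its level was 91.2 and 113 CPM in tumour-gated cells against 1279 and 1633 CPM in macrophage-gated cells. At least 1 UMI was found in 30.1% and 32.4% of tumour-gated cells and in 50% and 51.2% of macrophage-gated cells. With every cell thinned to 2000 UMIs, to set depths equal, these shares were 12.3% and 13.7% against 41.9% and 46.6%. Tumour-gated and ungated cells held 69.1% and 69.7% of its UMIs, and macrophage-gated cells 17.8% and 15.5%.

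Ccl12 and Ccl8 complete that chromosome group, and both had their highest levels in macrophage-gated cells. Ccl12 stood at 1599.8 and 2163 CPM in macrophage-gated cells, against 1.72 and 2.19 CPM in tumour-gated and 20.4 and 103 CPM in monocyte-gated cells. Macrophage-gated cells held 91.8% and 90.6% of its UMIs. Ccl8 was less abundant and sat in few cells: it stood at 133 and 149.7 CPM, with a UMI in 9.68% and 10.4% of macrophage-gated cells, and the 1 richest cell held 17.0% and 34.7% of the gate's Ccl8 UMIs. Tumour-gated and ungated cells, with a Ccl8 UMI in 2.96% and 2.71% of tumour-gated cells, still held 51.8% and 52.6% of all Ccl8 UMIs. No Ccl8 UMI was found in 108 and 157 monocyte-gated cells, which allows up to 2.78% and 1.91% of cells with a UMI (3 counts of the total, counting error only). At median depths of 2967.5 and 2656 UMIs this does not limit the share of cells that express the gene.

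Ccl3 and Ccl4, the macrophage inflammatory proteins, were myeloid in both libraries. Ccl3 stood at 889.9 and 904 CPM in macrophage-gated and 545 and 509 CPM in monocyte-gated cells, and Ccl4 at 1879 and 2133 CPM and at 1455 and 1119 CPM. Ccl4 was also found in dendritic-gated (1505 and 1495 CPM) and T or NK-gated cells (519 and 2020 CPM). Leukocyte gates held 92.9% and 91.8% of Ccl3 UMIs and 91.9% and 90.6% of Ccl4 UMIs.

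Ccl6, Ccl9 and Ccl24 were myeloid as well. Ccl6 was the most abundant CC chemokine of the monocyte gate, at 3779.9 and 2818 CPM, and stood at 2557 and 2153 CPM in the macrophage gate. Levels of different genes are set side by side without division by length, since this assay counts 1 tag per molecule at the 3' end. A Ccl6 UMI was found in 93.1% and 86.9% of macrophage-gated cells, more than for any other member, and in 4.24% and 3.94% of tumour-gated cells (82.2% and 81.1% against 0.753% and 0.706% when thinned). Ccl9 stood at 579 and 532 CPM in macrophage-gated and 472 and 544 CPM in monocyte-gated cells. Ccl24 was uneven: 63.3% and 72.7% of macrophage-gated cells held none, while the richest cells held 62 and 45 UMIs. No UMI of Ccl6, Ccl9 or Ccl24 was found in the T or NK gate, where 22 and 34 cells, at median depths of 1483.5 and 1514 UMIs, allow up to 13.6% and 8.82% of cells with a UMI.

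Ccl5 was the one member whose highest levels lay outside the macrophage lineage. T or NK-gated cells stood at 1912 and 5201 CPM and dendritic-gated cells at 1718 and 4869 CPM, against 11 and 85.0 CPM in macrophage-gated cells. A Ccl5 UMI was found in 13 of 22 and 26 of 34 T or NK-gated cells and in 3 of 11 and 7 of 13 dendritic-gated cells, beside 2.02% and 4.23% of the deeper macrophage-gated cells. Tumour-gated and ungated cells, though low in level, held 32.4% and 42.3% of all Ccl5 UMIs.

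RNA released from broken cells gives all droplets some UMIs, so tumour levels were set beside those of 7 macrophage transcripts that tumour cells should lack (C1qa, C1qb, C1qc, Lyz2, Csf1r, Tyrobp and Fcer1g). In tumour-gated cells these stood at 0.0911 to 0.176% of their macrophage-gated level in the vehicle library and at 0.103 to 0.340% in the RP-6306 library. C1qa, C1qb, C1qc and Csf1r are markers of the macrophage gate, so their low percentages follow partly from it. The tumour gate limits leukocyte markers, which can also hold down leukocyte-wide genes such as Tyrobp and Fcer1g. Lyz2 is not in the macrophage list, but it is among the 7 transcripts that set both ranges. It lies inside them by construction, which is no check on the gates. How far the gates lower these ranges was not tested. Ccl3, Ccl4, Ccl6, Ccl9, Ccl12 and Ccl24 lay between 0.0998 and 0.189% in both libraries, and were read as background in tumour cells. No tumour-gated cell held more than 1 UMI of Ccl3, Ccl9 or Ccl24.

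The other 4 members lay above that range, which for Ccl5 does not tell it from background. Ccl2 in tumour-gated cells was at 62.2% and 51.9% of its macrophage level, Ccl7 at 7.13% and 6.91%, and Ccl8 at 2.71% (2.15 to 3.40) and 2.69% (2.17 to 3.33). Ccl5 was at 17.1% and 7.58% of its macrophage level, but that level was low, at 15 and 113 UMIs. Dendritic and T or NK cells, its highest sources, were not part of that comparison. In tumour-gated cells Ccl5 stood at 1.88 and 6.45 CPM, against 1912 and 5201 CPM in T or NK-gated cells. For Ccl5, 4 vehicle and 9 RP-6306 tumour-gated cells held 5 or more UMIs. They carried 29 of 72 and 127 of 250 Ccl5 UMIs, and 0 and 1 of them held any T, NK or dendritic marker.

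**Figure D2:**
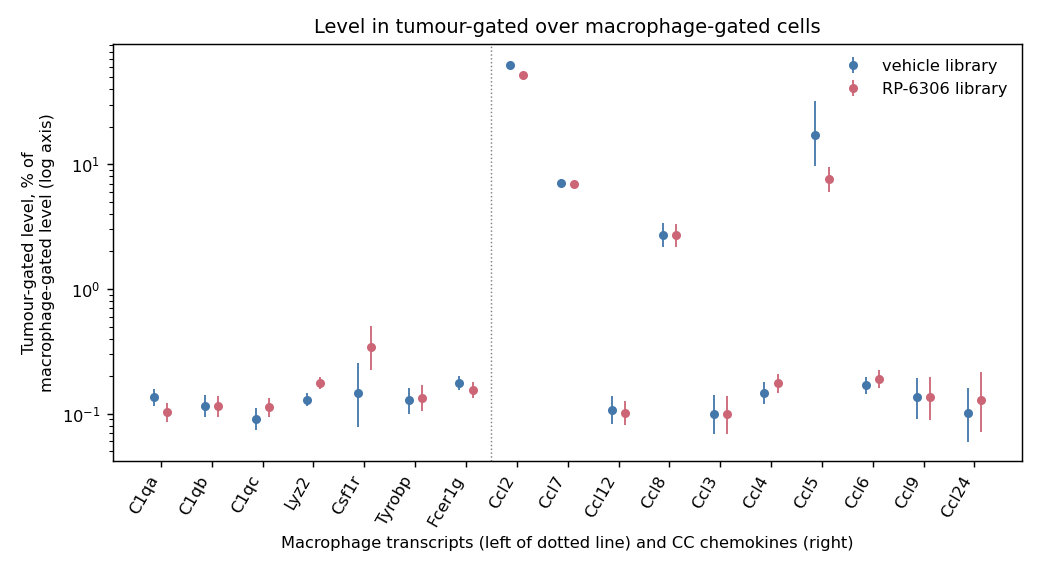
Level in tumour-gated cells as a percent of the level in macrophage-gated cells of the same library (log axis), for 7 macrophage transcripts (left of the dotted line) and the 10 CC chemokines (right), with 95% counting intervals. Ccl2, Ccl7, Ccl8 and Ccl5 lie above the macrophage transcripts in both libraries, and the other 6 lie among or near them. Ccl5 is low in macrophage-gated cells, so its place here does not tell it from background.

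Tumour levels of the CC chemokines were then compared between libraries. For Ccl2 the ratio of CPM, RP-6306 over vehicle, was 1.01, with a counting interval of 0.993 to 1.02 that includes no difference. Ccl7 was higher in the RP-6306 library by 1.24-fold (1.18 to 1.29). Ccl5 was higher by 3.43-fold (2.63 to 4.52), at 1.88 and 6.45 CPM, and without the richest cell of each library (10 and 43 UMIs) the ratio was 3.30. Ccl8 was at 3.61 and 4.02 CPM (1.12, 0.882 to 1.41). These intervals cover counting error only and are too narrow where UMIs sit in few cells.

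With 20 or more UMIs over both libraries required, all 10 members could be compared, and 1 of them (Ccl5) was at least 1.5-fold higher in RP-6306 tumour-gated cells, where 4.77% of 15715 genes were. None was at least 1.5-fold lower, where 3.51% of genes were. With the mean of per-cell CPM Ccl9 passed (0.630), at a level read as background. The median log2 ratio of the members was 0.09, beside -0.02 over all genes. When ungated cells with at most 1 leukocyte marker were added to the tumour gate, a choice made after seeing the data, the ratio was 2.42 for Ccl5 and 1.40 for Ccl7.

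Macrophage-gated cells showed 2 members past that fold, in opposite directions. Ccl24 was lower in the RP-6306 library: 637 UMIs (466 CPM) and 399 UMIs (300.2 CPM), a ratio of 0.644 (0.567 to 0.731). Ccl5 was higher, with 15 and 113 UMIs (ratio 7.74, 4.50 to 14.3), but 1 cell held 63 of the 113 and another 32. With no doublet removal the Ccl5 ratio was 1.21 and no longer passed, with 4 class markers required it was 3.38, and with no keratin UMI allowed 3.29. The share of all 8658 genes that passed was 6.92% for higher and 7.44% for lower. With 4 class markers Ccl24 was at 0.687 and no longer passed.

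None of the monocyte attractants passed that fold in macrophage-gated cells. Ccl12 was at 1.35 (1.28 to 1.43), Ccl7 at 1.28 (1.20 to 1.36), Ccl2 at 1.21 (1.14 to 1.28) and Ccl8 at 1.12 (0.915 to 1.38). In cells with no keratin UMI the ratio was 1.01 for Ccl2 and 0.769 for Ccl8, and without the richest cell it was 0.890 for Ccl8. With the mean of per-cell CPM Ccl8 was at 0.983. Ccl4 was at 1.14 (1.08 to 1.20), or 0.934 in cells with no keratin UMI, and Ccl3 at 1.02 (0.937 to 1.10). Ccl6 was lower, at 0.842 (0.801 to 0.885), and Ccl9 at 0.919 (0.829 to 1.02). Of the 10 members, 7 were higher by any amount, where 47.6% of all genes were (6 with median-of-ratios scaling). That number falls in cells with no keratin UMI, where Ccl3 (0.909), Ccl4 and Ccl8 were below 1. The members' median log2 ratio was 0.18, beside -0.02 over all genes.

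**Figure D3:**
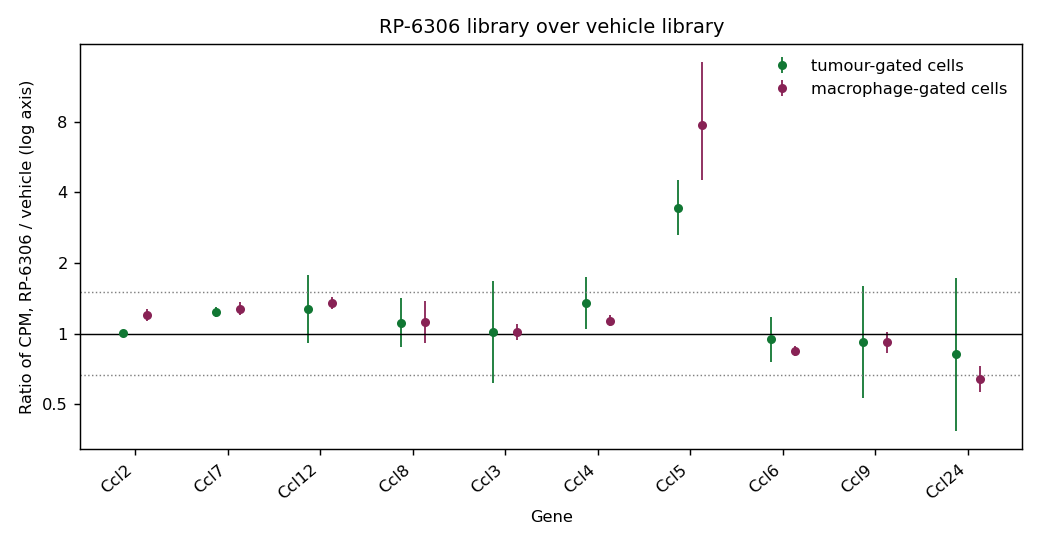
Ratio of CPM, RP-6306 over vehicle library (log axis), for each CC chemokine in tumour-gated and macrophage-gated cells, with 95% counting intervals. Dotted lines mark 1.5-fold in each direction. Ccl5 lies above the upper line in both gates and Ccl24 below the lower line in macrophage-gated cells, while Ccl2 in tumour-gated cells lies on 1.

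The small leukocyte gates gave further differences between the libraries. In monocyte-gated cells Ccl12 had 7 UMIs in 5 of 108 vehicle cells and 50 UMIs in 11 of 157 RP-6306 cells (5.07-fold, 2.29 to 13.2). Ccl7 had 36 and 115 UMIs there (2.27-fold, 1.55 to 3.39), of which 1 RP-6306 cell held 63. Ccl5 had 0 and 15 UMIs. Ccl6 (0.746, 0.691 to 0.805) and Ccl4 (0.769, 0.680 to 0.87) were lower. In T or NK-gated cells Ccl5 had 81 and 309 UMIs (2.72-fold, 2.12 to 3.52) and Ccl4 had 22 and 120 UMIs in 4 and 10 cells (3.89-fold, 2.45 to 6.44). Dendritic-gated Ccl5 had 129 and 241 UMIs (2.84-fold, 2.28 to 3.54). Leukocytes that no class claimed went the other way for Ccl5, with 142 UMIs in 82 vehicle cells and 15 UMIs in 72 RP-6306 cells, and 49 of the 142 were in 1 cell.

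Macrophage-gated cells are a mixture of states, so each library was divided in 5 ways that use no CC chemokine. A member was counted when its CPM differed at least 1.5-fold between the sides in both libraries. The resident-like side held 43 vehicle and 48 RP-6306 cells with 2 or more of Folr2, Lyve1, Cd163, Cbr2, Timd4 and Gas6, genes of long-lived tissue macrophages. These cells were deeper (medians of 6708 and 5814.5 UMIs against 5040 and 4548), and the part of depth in this division was not tested.

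On the resident-like side 4 members were higher, where 8.4% of all genes were, and they were the 4 monocyte attractants of the first chromosome 11 group. Direction alone was not particular to that group. Ccl3 (2.14-fold and 1.45-fold) and Ccl4 (1.91-fold and 1.25-fold) were also higher in both libraries, but missed the cut in the RP-6306 library. Ccl8 stood at 446 CPM against 42.5 in the vehicle library and at 518 against 29.9 in the RP-6306 library (10.5-fold and 17.3-fold). Ccl12 stood at 3569.9 against 1028 and at 3894 against 1599.7 CPM, Ccl7 at 2568 against 905 and at 3066 against 1167, and Ccl2 at 3235 against 1093 and at 2913 against 1569.8. Ccl24 and Ccl5 were lower, where 6.46% of genes were, with Ccl24 at 114 against 568 CPM and at 214 against 328 CPM. For Ccl5 the resident-like cells held 1 of 15 and 2 of 113 UMIs, but by share of cells with a UMI the sides were at 2.33% and 1.95% in the vehicle and 2.08% and 4.72% in the RP-6306 library.

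Cells with 3 or more UMIs of Arg1, which encodes arginase, a gene of macrophages in hypoxic tumour tissue, numbered 73 and 46. Ccl6 was higher in them, at 4296 against 1889.7 CPM in the vehicle and 4252 against 1616 CPM in the RP-6306 library (2.27-fold and 2.63-fold). Ccl24 was also higher, at 694 against 379 CPM and 439 against 265 CPM (1.83-fold and 1.66-fold). These were the 2 members counted as higher, where 3.75% of all genes were. Other members leaned that way too. Ccl9 (1.40-fold and 1.86-fold) and Ccl2 (1.35-fold and 1.51-fold) passed the cut in the RP-6306 library alone. Ccl7 and Ccl3 were also above 1 in both libraries, and Ccl4 and Ccl8 were below 1 in both. Ccl5 was lower, where 6.32% of genes were, with 0 of 15 and 2 of 113 UMIs on the Arg1 side. Cells with 63 and 32 Ccl5 UMIs fell on the other side of the RP-6306 library, where the share of cells with a UMI was 4.35% with Arg1 and 4.21% without. In cells with no keratin UMI, Ccl2 and Ccl7 also passed, which made 4. Ccl24 was lower in the RP-6306 library on both sides of this division, at 0.633 with Arg1 and 0.699 without. On the resident-like side, where it had 35 and 70 UMIs, it was 1.88-fold higher.

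MHC class II genes (H2-Aa, H2-Ab1, H2-Eb1 and Cd74), which present antigen to helper T cells, divided the monocyte attractants the other way. In the cells above the median of their summed share, 5 members were lower, where 6.71% of all genes were: Ccl12 (0.374 and 0.311 of the level in the other cells), Ccl2 (0.479 and 0.398), Ccl7 (0.655 and 0.262), Ccl8 (0.239 and 0.176) and Ccl3 (0.647 and 0.536). Ccl3 no longer passed in cells with no keratin UMI. Ccl5 was the 1 member higher, where 3.35% of genes were, with 14 of 15 and 106 of 113 UMIs on that side. These UMIs sat in few cells: 1 vehicle cell held 10, and RP-6306 cells held 63 and 32. The share of cells with a Ccl5 UMI was 3.23% against 0.806% in the vehicle and 5.38% against 3.08% in the RP-6306 library.

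The interferon division (Isg15, Rsad2 and 6 others) gave different pictures in the libraries. Its vehicle median was 0, so 78 cells with any UMI stood against 170 with none. The RP-6306 sides were unequal as well, at 129 against 131 cells, which points to a median of 0 there too. Cells on the interferon side were deeper, with medians of 6070.5 and 5575 UMIs against 5037 and 4121. The part of depth in this division was not tested. Ccl12 was at 0.713 of the other side's level in the vehicle library and at 2.03 in the RP-6306 library, Ccl7 at 1.05 and 1.84, Ccl2 at 0.925 and 1.5, and Ccl4 at 1.48 and 2.02. Within the interferon side Ccl12 was 2.20-fold higher in the RP-6306 library, and on the other side it was at 0.773. No member was higher in both libraries, where 3.78% of genes were. Ccl24 was lower in both (0.663 and 0.582), where 2.98% of genes were, but with no keratin UMI allowed Ccl5 passed in its place.

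The inflammatory division (Il1b, Tnf, Cxcl2 and 5 others) counted Ccl5 alone as higher, where 2.44% of genes were, with 14 of 15 and 100 of 113 UMIs on the high side. That side included the richest vehicle cell (10 UMIs) and both of the richest RP-6306 cells (63 and 32 UMIs). By share of cells with a Ccl5 UMI, the RP-6306 library went the other way, at 2.31% on the high side and 6.15% on the other. None was lower in both, where 3.67% of genes were. Ccl8 was at 0.88 in the vehicle library and 0.0890 in the RP-6306 library, where 1 cell held 69 of its 199 UMIs.

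**Figure D4:**
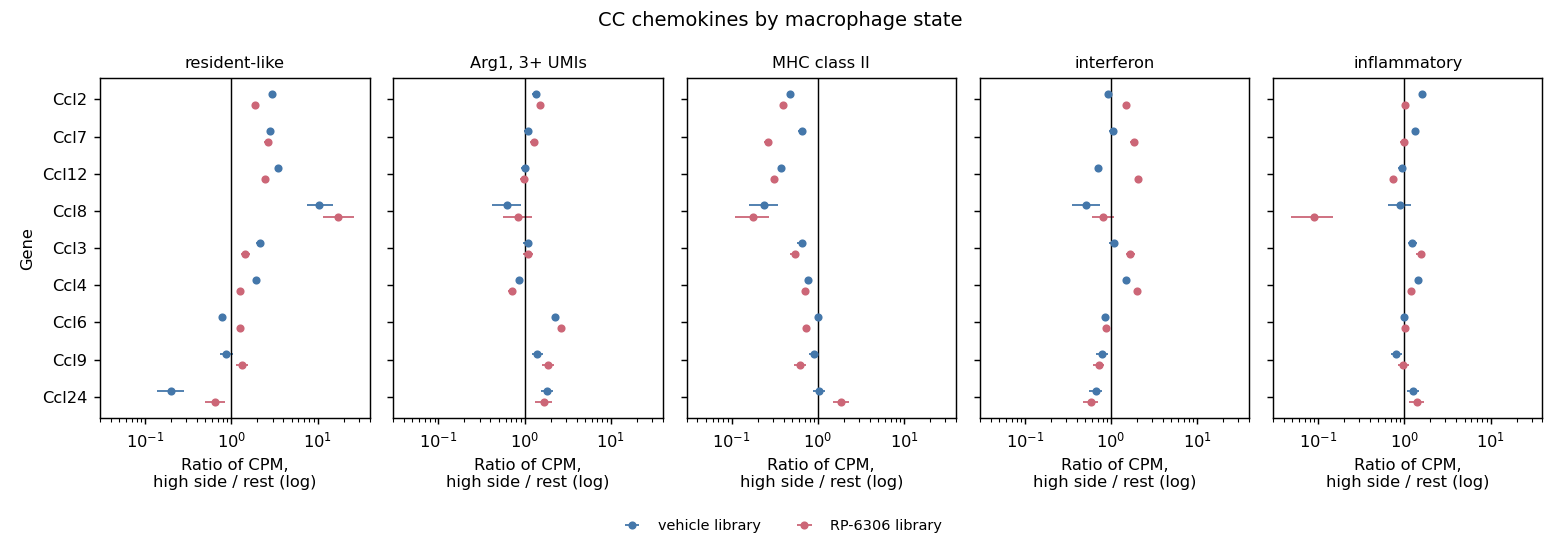
Ratio of CPM between the high side and the rest of macrophage-gated cells (log axis) for 9 CC chemokines in 5 divisions, with 95% counting intervals, in the vehicle and RP-6306 libraries. Ccl5 is left out because of its few UMIs. The 4 monocyte attractants, Ccl3 and Ccl4 lie right of 1 on the resident-like side and left of 1 on the MHC class II side. Ccl6, Ccl24, Ccl9, Ccl2, Ccl7 and Ccl3 lie right of 1 with Arg1 in both libraries, and the libraries part for Ccl12 in the interferon division.

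Co-expression was read over macrophage-gated cells thinned to 2000 UMIs (236 vehicle and 238 RP-6306 cells), as Pearson's r of log(1 + UMIs). The cells of a library share its depth and free RNA, so r is a description and has no p. Over the 45 pairs of members r had a median of 0.0956 in the vehicle and 0.104 in the RP-6306 library. The closest pair was Ccl2 and Ccl7 (r = 0.72 and 0.62), then Ccl7 and Ccl12 (0.60 and 0.61), Ccl3 and Ccl4 (0.56 and 0.64) and Ccl2 and Ccl12 (0.47 and 0.57). Each of these pairs lies within 1 chromosome group, but r did not follow the groups throughout. Across the groups, Ccl3 and Ccl7 were at 0.43 and 0.37, and Ccl4 and Ccl7 at 0.43 and 0.33. Within the first group, Ccl8 and Ccl12 were at only 0.16 and 0.17. Ccl7 and Ccl12 were found together in 31.8% and 35.3% of cells, where the product of their single shares gives 19.2% and 22.9%.

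The second set was looser. Ccl6 reached r = 0.28 and 0.34 with Ccl9 and 0.27 and 0.18 with Ccl24, and Ccl6 with Ccl12 was at -0.13 and 0.00. Ccl24 with Ccl12 was at -0.09 and -0.13. With cells thinned to 1000 UMIs the mean r of Ccl3 and Ccl4 over the libraries was 0.48 in place of 0.60.

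**Figure D5:**
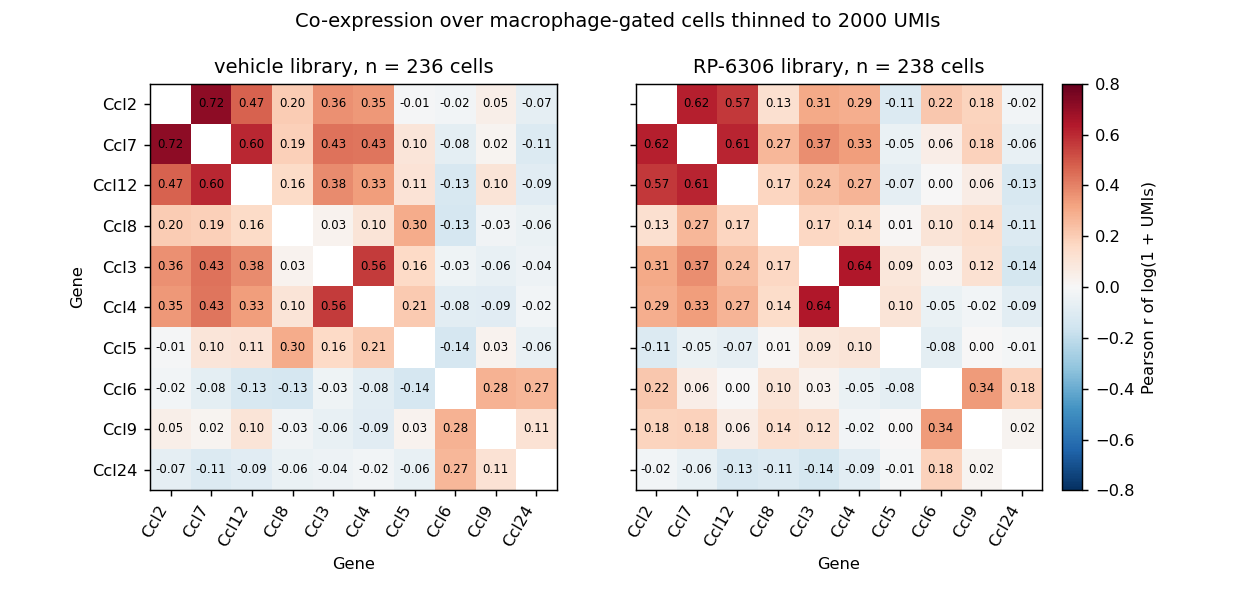
Pearson's r of log(1 + UMIs) for each pair of CC chemokines over macrophage-gated cells thinned to 2000 UMIs, in the vehicle (left, n = 236 cells) and RP-6306 library (right, n = 238 cells). Ccl2, Ccl7 and Ccl12 form 1 block and Ccl3 and Ccl4 another in both libraries, and Ccl6 is paired most with Ccl9.

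The genes most like each member were ranked by mean r over the libraries among 4298 genes found in at least 5% of thinned macrophage-gated cells. For Ccl12 these were Ccl7, C1qc (0.53 and 0.51), Ccl2, Apoe (0.50 and 0.45) and C1qa (0.50 and 0.43). C1qc and C1qa encode complement C1q chains and also served in the gate, and Apoe encodes a lipid carrier of macrophages. For Ccl7 they were Ccl2, Ccl12, Pf4 (0.52 and 0.41), Apoe and C1qc, and for Ccl2 they were Ccl7, Ccl12, Apoe, C1qc and F13a1, the last a marker of the monocyte gate.

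Ccl6 and Ccl24 led to other genes. The nearest to both was Fn1, which encodes the matrix protein fibronectin, at 0.46 and 0.38 for Ccl6 and 0.34 and 0.31 for Ccl24. Arg1 came next for Ccl6 (0.39 and 0.26), followed by Srgn, Ccl9 and Crip1. For Ccl24 the others were Ccl6, Spp1, which encodes osteopontin (0.22 and 0.20), Vegfa and Dhx36, the last at 0.02 and 0.34. For Ccl3 the list was Ccl4, Ccl7, Ccl2, Ccl12 and C1qc, and for Ccl4 it was Ccl3, Ccl7, C1qc, Ccl2 and Ccl12. Ccl9 had no close partner beyond Ccl6, with Vdr next at 0.17 and 0.18. Ccl5 and Ccl8 were found in under 10% of thinned macrophage-gated cells and were not ranked.

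Within tumour-gated cells Ccl2 had other partners than in macrophages. Among 4508 genes, over 3719 and 3824 thinned cells, the nearest were Nfkbia (0.36 and 0.35), the inhibitor that NF-kB itself induces, the neutrophil attractants Cxcl1 (0.34 and 0.33) and Cxcl2 (0.31 and 0.30), the transcription factor gene Junb (0.27 and 0.23) and Sdc4 (0.23 and 0.24). Ccl2 and Ccl7, the closest pair of macrophage-gated cells, were at r = 0.09 and 0.13 here, where Ccl7 was found in 435 of 3719 and 545 of 3824 thinned cells.

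Tumour-gated cells were divided by the same kind of sums. Above the median of 6 inflammatory genes (Il1b and Tnf left out; Nfkbia and Cxcl2, just named as partners of Ccl2, are among the 6), Ccl2 stood at 1405 against 549 CPM in the vehicle and at 1413 against 551 CPM in the RP-6306 library (2.56-fold and 2.57-fold). Ccl7 stood at 127 against 54.7 CPM and at 155 against 69.5 CPM (2.33-fold and 2.24-fold). These 2 members were counted as higher, where 2.19% of all genes were, and none as lower, where 2.04% were. The interferon sum set cells with any such UMI (1360 vehicle and 1812 RP-6306 cells) against cells with none (2394 and 2067). On the interferon side Ccl5 was the 1 member higher in both libraries, where 1.74% of genes were. It stood at 3.41 against 0.901 CPM and at 11.1 against 1.62 CPM (3.79-fold and 6.85-fold). The share of cells with a Ccl5 UMI was 1.62% against 0.835% in the vehicle and 4.36% against 1.40% in the RP-6306 library. No member was lower, where 1.08% of genes were. Ccl2 was 1.28-fold and 1.17-fold higher on that side. The cells on the interferon side were deeper, with medians of 9993.5 and 9717 UMIs against 8920.5 and 8545.

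Transcripts of Ccr1 and Ccr2 were highest in leukocyte gates. Ccr2, the receptor for Ccl2, Ccl7 and Ccl12, stood at 580.4 and 478 CPM in monocyte-gated cells, whose gate uses it as a marker, and at 237 and 149.7 CPM in macrophage-gated cells, against 0.131 and 0.181 CPM in tumour-gated cells. In macrophage-gated cells it had 324 and 199 UMIs, a ratio of 0.631 (0.527 to 0.756). Ccr1 stood at 143 and 206 CPM there (1.44, 1.19 to 1.74). Ccrl2, a decoy-like receptor that does not signal, stood at 135 and 206 CPM (1.53, 1.27 to 1.86). Ccr3, the receptor for Ccl24, had 0 UMIs in tumour-gated cells and 1 and 0 in macrophage-gated cells. None among 3754 and 3879 tumour-gated cells allows up to 0.0799% and 0.0773% of cells with a Ccr3 UMI, which is no limit on expression below capture.

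The other CC chemokine genes were mostly sparse. Of 11 listed receptors, 4 had 20 or more UMIs over both libraries in macrophage-gated cells, of which 1 (Ccrl2) was at least 1.5-fold higher and 1 (Ccr2) lower, where 6.92% and 7.44% of all genes were. Of 11 other CC ligands, 1 (Ccl25) had 20 or more UMIs there and 7 had none. In tumour-gated cells 4 ligands had 20 or more UMIs and none passed 1.5-fold, where 4.77% of all genes were higher and 3.51% lower, among them Ccl20, an attractant of Ccr6-bearing cells, at 10.9 and 16.0 CPM (1.48, 1.30 to 1.68), and Ccl25 at 13.4 and 14.8 CPM. Ccl27a is among them too, and near-identical copies of that gene make its count uncertain. Of 4 scavenging receptors, Ackr3 alone had 20 or more UMIs in tumour-gated cells, at 1.36 and 0.851 CPM (0.626, 0.392 to 0.988), past 1.5-fold lower, where 3.51% of genes were.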

How the data were processed

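Values were the authors' deposited counts of UMIs per gene and barcode. The file headers give Cell Ranger 7.1.0, and the processing notes of the submitters give version 2.1.1 with mm10, a difference that was not resolved. The kit read transcript 3' ends, per the labels' protocols. The members and gene lists were chosen with earlier results of these data known. Cells with at least 500 genes and at most 15% mitochondrial UMIs were kept (9540 and 10308). The highest 8% by Scrublet score (scanpy 1.11.5) were removed as doublets (684 and 808), since its automatic threshold called 0 and 1 cells. Leukocyte-, fibroblast- or endothelial-gated cells with over 2 keratin UMIs and 500 or more keratin CPM, and cells passing both the fibroblast and endothelial gates, were set aside as mixed (682 and 762 in all). UMIs were summed per gate and library and scaled to CPM. Intervals are 95%: Poisson for levels and conditional binomial for ratios, both exact (scipy 1.17.1). The ratio intervals were tried on simulated Poisson counts. Those hold no gathering of UMIs in few cells, so the trial does not cover it. Named genes are the 10 members, the 5 genes with the highest mean r for each, and the fixed lists of other CC genes and markers. TMM factors came from edgeR 4.0.16. Totals were 100815022 and 106465655 UMIs. A planned comparison of protein sequences was replaced by one of coding sequences. Values of a further listed receptor gene are not reported here.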

Additional observations from a re-analysis of the deposited data

How the results depend on the processing

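No paired analysis was possible because each treatment has 1 library. Under the alternatives tried (scaling, averaging, UMI minimum, gene minimum, doublets, class markers, keratin limit, richest cell, thinning, and 3 chosen after seeing the data), 51 of 56 recomputed counts of members stayed within 1.5 times of those reported and 5 did not. With the mean of per-cell CPM, 1 member (Ccl9) was lower in RP-6306 tumour-gated cells in place of 0. With no doublet removal, 0 members were higher in RP-6306 macrophage-gated cells in place of 1 (Ccl5), and with 4 markers for a class 0 were lower in place of 1 (Ccl24). In macrophage-gated cells with no keratin UMI, 4 members were higher with Arg1 in place of 2, and 1 (Ccl4) was higher on the interferon side in place of 0. Of the single ratios and correlations, 255 values stayed close and 20 moved. Some of the 255 could not move: the UMI minimum does not enter a ratio, and the class-marker setting leaves the tumour gate as it was. The counts for tumour-gated cells under that class-marker setting could not move either. Nor could the counts under other UMI minimums (none, or 100). All 10 members already had 20 or more UMIs, and every member counted had 100 or more. The Ccl5 ratio ranged from 2.42 to 3.59 in tumour-gated and from 1.21 to 10.3 in macrophage-gated cells, and the Ccl24 ratio from 0.502 to 0.687 in macrophage-gated cells. Depth limits Ccl5 and Ccl8 in macrophages, which rest on 15 and 113 and on 182 and 199 UMIs, and every small gate.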

Other observations

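In the sum over all retained cells, the library levels of the members mixed sources that differed. Ccl5 stood at 6.34 and 14.7 CPM (2.32-fold, 2.11 to 2.56) and Ccl7 at 108 and 148 CPM (1.38-fold, 1.34 to 1.41), while Ccl2 stood at 982 and 992 CPM (1.01-fold). Ccl24 stood at 8.89 and 5.96 CPM (0.670, 0.601 to 0.747). The fibroblast-gated cells, whose keratin level leaves their identity uncertain, held Ccl7 at 157 and 217 CPM (1.38-fold, 1.22 to 1.57) and Ccl8 at 10.7 and 8.53 CPM, both above the tumour-gated level in each library. Ccl17, an attractant of Ccr4-bearing T cells, had 0 UMIs in vehicle and 18 in RP-6306 macrophage-gated cells, and Ccr7, a receptor of migrating dendritic cells and a marker of the dendritic gate, had 1 and 13.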
